A study of Mus musculus with 6 samples.

Results

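The tendon cell genes of mouse gastrocnemius (GAS) muscle were examined in the Kvβ2 knockout (KO) and in wildtype (WT) mice. The set held 10 of the 37979 genes in the table. *Tppp3* and *Aebp1* were selected on their FPKM, which was higher in KO muscle in these same libraries, and the other 8 (*Scx*, *Tnmd*, *Mkx*, *Fmod*, *Thbs4*, *Comp*, *Chad* and *Kera*) were added as known markers of tendon and tendon sheath. All 10 genes passed the filter on low values and were matched by their symbol, each to 1 entry of the table.

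RNA came from untreated male mice of 20 weeks, 3 WT and 3 with both copies of *Kcnab2* deleted (Kvβ2-/-), bred from heterozygous parents and numbered 1, 7 and 8 in both genotypes. The deletion is constitutive, so every cell type of the muscle carries it. Values are FPKM, the fragments per kilobase of transcript, scaled also to the number of mapped fragments, which allow levels to be compared between genes because they are scaled to length. Library depth, read from the steps of low FPKM, was about 14620000 to 19320000 fragments in KO and 20030000 to 21120000 fragments in WT muscle. The targeted gene *Kcnab2* was at 0.233, 0.10 and 0.110 FPKM for WT replicates 1, 7 and 8, compared with 0, 0.0151 and 0 FPKM for the KO mice. Skeletal muscle identity was clear in each library, with *Acta1*, the skeletal actin, at 5029 to 13917 FPKM. Nothing states how much tendon was taken with each muscle, and more tendon cells and more RNA per tendon cell cannot be told apart in RNA of a whole muscle.

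Tendons join muscle to bone, and their cells lay down aligned collagen fibrils. Scleraxis (*Scx*), a basic helix-loop-helix factor, and mohawk (*Mkx*), a homeobox factor, direct the tendon cell program, and tenomodulin (*Tnmd*) is a membrane protein of mature tendon cells. Fibromodulin (*Fmod*) and keratocan (*Kera*) are small leucine-rich proteoglycans that bind collagen, and chondroadherin (*Chad*) is a related matrix protein. Thrombospondin-4 (*Thbs4*) and cartilage oligomeric matrix protein (*Comp*), itself a thrombospondin, are pentameric matrix proteins of tendon. *Tppp3* encodes a microtubule-binding protein that marks cells of the tendon sheath, and *Aebp1* encodes a secreted collagen-binding protein with an inactive carboxypeptidase domain that fibroblasts use in assembling matrix.

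Promoters from RefSeq on GRCm38.p6 were matched for 6 of the 10 genes. The windows run from 250 bases before to 50 bases after the annotated start, written 5′ to 3′ on the strand of the gene. The start is that of RefSeq, and the *Aebp1* window ends before the gene start that GENCODE gives, so it holds no base of that annotated gene. They are shown because *Fmod*, *Thbs4* and *Chad* rose and fell together between libraries. *Aebp1* is shown because it varied little within each genotype, in the libraries on which it was selected. *Tnmd* is shown as the classical marker of mature tendon cells. Capitals mark the E-box CANNTG, the palindromic motif that scleraxis and other basic helix-loop-helix factors bind, and a search of 1 strand therefore covers both.
Fmod (chr1:134037004-134037303, plus strand): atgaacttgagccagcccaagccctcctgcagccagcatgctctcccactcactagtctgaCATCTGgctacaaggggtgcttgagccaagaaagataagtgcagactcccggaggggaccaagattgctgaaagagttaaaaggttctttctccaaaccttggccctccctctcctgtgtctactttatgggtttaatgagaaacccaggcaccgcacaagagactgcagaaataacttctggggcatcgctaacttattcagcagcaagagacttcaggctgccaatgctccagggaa
Thbs4 (chr13:92794769-92795068, minus strand): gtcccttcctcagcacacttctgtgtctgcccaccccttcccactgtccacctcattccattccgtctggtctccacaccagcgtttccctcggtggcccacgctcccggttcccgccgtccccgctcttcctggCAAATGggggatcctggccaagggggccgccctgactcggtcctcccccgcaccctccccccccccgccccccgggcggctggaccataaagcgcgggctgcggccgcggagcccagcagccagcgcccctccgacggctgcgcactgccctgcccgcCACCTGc
Chad (chr11:94564797-94565096, plus strand): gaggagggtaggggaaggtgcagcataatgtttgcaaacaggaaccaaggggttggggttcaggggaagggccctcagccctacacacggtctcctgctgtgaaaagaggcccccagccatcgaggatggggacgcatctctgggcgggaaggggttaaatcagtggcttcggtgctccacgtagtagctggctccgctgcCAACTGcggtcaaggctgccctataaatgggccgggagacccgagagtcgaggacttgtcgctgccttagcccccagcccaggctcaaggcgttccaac
Aebp1 (chr11:5861616-5861915, plus strand): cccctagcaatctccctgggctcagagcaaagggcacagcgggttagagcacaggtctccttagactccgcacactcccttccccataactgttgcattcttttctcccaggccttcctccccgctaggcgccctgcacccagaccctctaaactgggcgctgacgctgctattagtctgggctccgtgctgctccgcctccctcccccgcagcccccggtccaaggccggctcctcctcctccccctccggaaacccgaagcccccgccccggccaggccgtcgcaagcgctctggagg
Tnmd (chrX:133850758-133851057, plus strand): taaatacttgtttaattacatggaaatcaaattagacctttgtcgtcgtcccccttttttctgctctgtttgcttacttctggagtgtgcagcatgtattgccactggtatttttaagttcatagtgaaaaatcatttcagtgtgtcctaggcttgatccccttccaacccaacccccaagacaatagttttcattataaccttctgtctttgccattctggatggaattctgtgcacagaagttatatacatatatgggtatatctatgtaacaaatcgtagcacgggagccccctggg

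The *Fmod* window held 1 E-box, at -189 bases from the start, and the *Chad* window 1, at -49 bases. The *Thbs4* window held 2, at -115 and 43 bases, and they did not overlap. The windows of *Aebp1*, *Tnmd* and *Kera* held 0. At least 1 E-box was found in 72.3% of the 32851 promoters of the same length, so a match is common, and nothing about binding was measured. The GC content of the windows was 66.3% for *Aebp1*, 72.0% for *Thbs4*, 61.0% for *Chad*, 51.0% for *Fmod*, 41.0% for *Kera* and 40.0% for *Tnmd*.

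*Tppp3* (ENSMUSG00000014846, GRCm38 chromosome 8, 105467493 to 105471526, minus strand) was at 17.2, 14.7 and 20.4 FPKM for WT replicates 1, 7 and 8, compared with 54.6, 48.9 and 46.2 FPKM for KO replicates 1, 7 and 8. The lowest KO library was above the highest WT library by a wide margin. The group means were 17.4 ± 2.87 FPKM (SD, n = 3) for WT against 49.9 ± 4.29 FPKM (SD, n = 3) in KO muscle, a 2.86-fold difference of means. The log2 fold change was 1.52, with a standard error (SE) of 0.14. *Aebp1* (ENSMUSG00000020473, chromosome 11, 5861947 to 5872088, plus strand) was at 10.7, 12.1 and 10.5 FPKM in these WT mice, compared with 22.3, 19.8 and 20.6 FPKM for the KO mice. Here too the genotypes did not overlap. The group means were 11.1 ± 0.870 FPKM (SD, n = 3) for WT against 20.9 ± 1.27 FPKM (SD, n = 3) in KO muscle, a 1.88-fold difference of means and a log2 fold change of 0.91 (SE 0.11). These differences are how the pair was chosen, so they are given as a description and were not tested. Of all genes in the fit, 0.251% of 12334 were called higher in KO muscle at an adjusted p under 0.05, 0.324% were called in either direction, and in 18.3% of them every KO library was above every WT library.

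**Figure D1:**
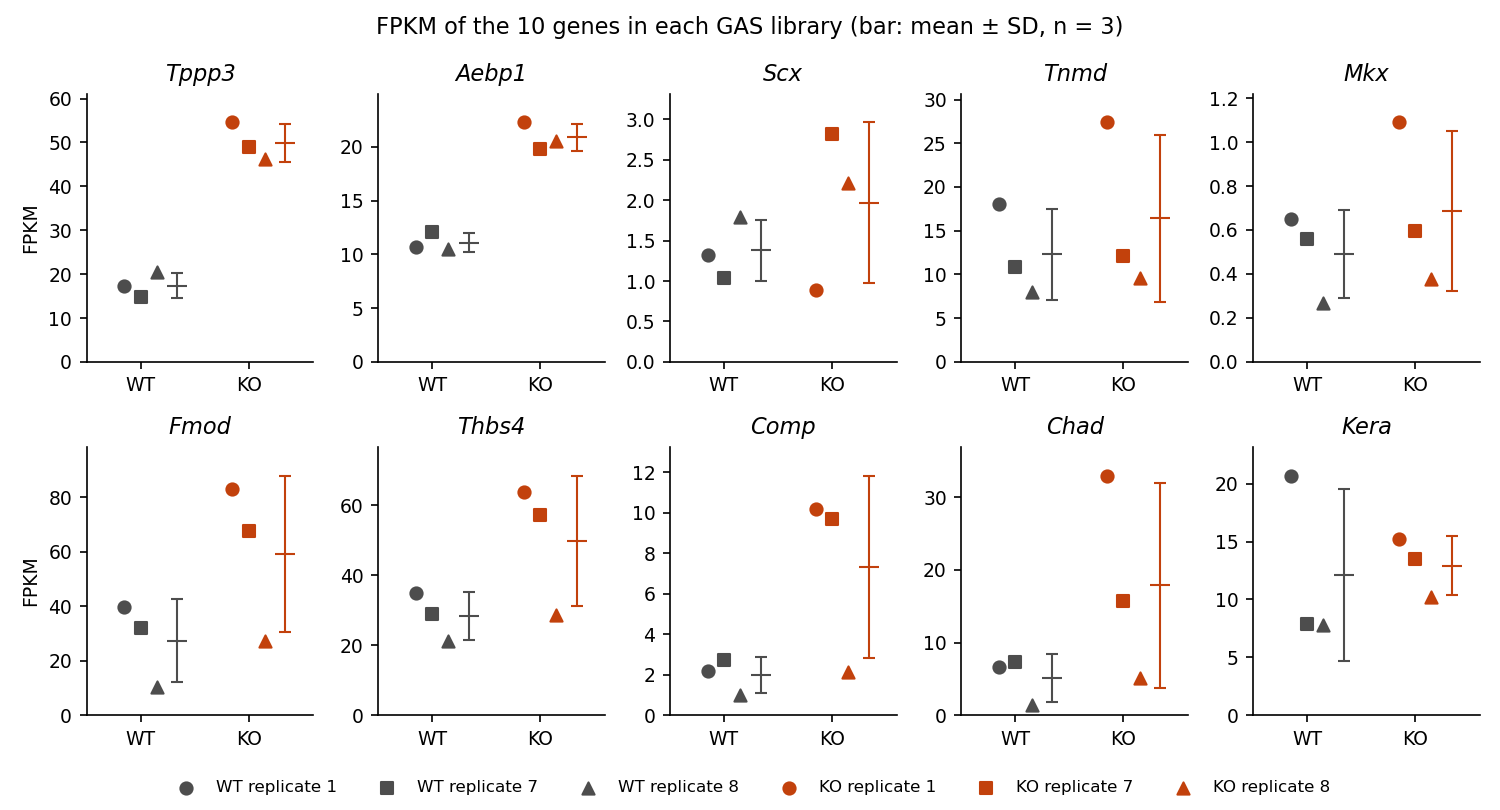
FPKM (vertical axes, each starting at 0) of the 10 genes in the 3 WT (grey) and 3 KO (orange) libraries, with the symbol giving the replicate number and the bars the mean ± SD, n = 3. *Tppp3* and *Aebp1* do not overlap between genotypes, whereas in the other 8 genes the libraries of the genotypes overlap.

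The coefficient of variation of *Tppp3* was 16.4% in WT and 8.59% in KO muscle, and that of *Aebp1* was 7.83% and 6.09%. On the log2 scale the SD within a genotype was 0.19 for *Tppp3* and 0.10 for *Aebp1*, against a median of 0.22 over all tested genes, and 40.8% of tested genes had a smaller SD than *Tppp3* and 9.40% a smaller SD than *Aebp1*. Selecting genes for a rise in these same libraries can favour a small spread. These shares therefore describe the selected pair and are not evidence of a trait of the genes. The values of *Tppp3* rest on about 274 to 880 fragments a library and those of *Aebp1* on 475 to 842.

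The fold changes of all genes moved with the GC content of their transcripts (Spearman's rho = 0.70 across 11985 tested genes, which share the libraries and are not independent replicates). *Tppp3* and *Aebp1* have a GC content of 58.3% and 58.0%, and of the 1708 tested genes of 56% to 60% GC, 93.0% had a positive log2 fold change, with a median of 0.51. With this trend removed from every library, the log2 fold change was 1.00 (SE 0.15) for *Tppp3* and 0.40 (SE 0.13) for *Aebp1*. The part of the GC trend in the deposited values of the pair was not tested beyond this correction. The correction depends on GC content alone, which is nearly the same in both genes, so it lowered both log2 fold changes by nearly the same amount. The smaller share lost by *Tppp3* follows from its larger starting value, on which the gene was selected.

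**Figure D2:**
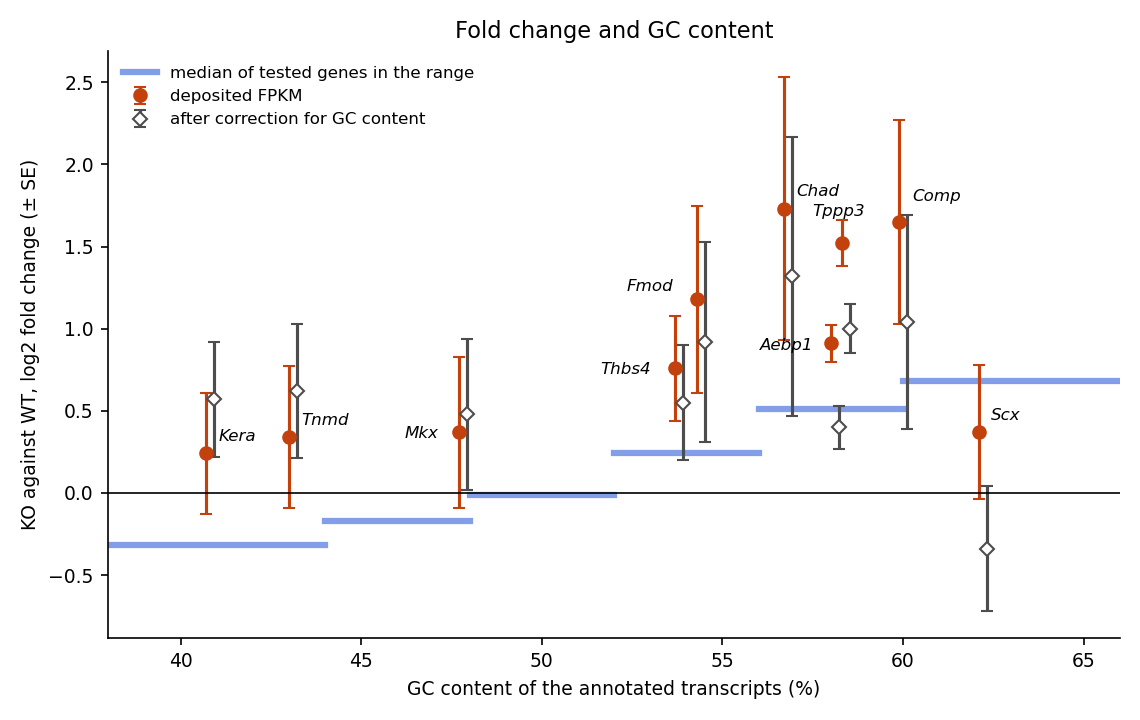
KO against WT log2 fold change (± standard error, n = 3 per genotype) of the 10 genes against the GC content of their annotated transcripts (percent), from the deposited FPKM (filled circles) and after correction for GC content (open diamonds, moved slightly right), with the median of all tested genes in 6 ranges of GC content as blue bars. The correction lowered *Aebp1* from 0.91 to 0.40 and *Tppp3* from 1.52 to 1.00, raised *Tnmd* from 0.34 to 0.62 and *Kera* from 0.24 to 0.57, and turned *Scx* from 0.37 to -0.34.

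Neither of the other TPPP genes was called. *Tppp*, the founding tubulin polymerization promoting protein, known from brain, was at 4.30, 5.75 and 5.92 FPKM in WT mice 1, 7 and 8 against 5.33, 4.24 and 5.96 FPKM for the KO mice, a log2 fold change of -0.04 (SE 0.18, adjusted p = 0.910). *Tppp2* was at 1.14, 0.911 and 0.863 FPKM in WT mice 1, 7 and 8 against 1.48, 0.697 and 0.636 FPKM for the KO mice, with a log2 fold change of -0.13 (SE 0.34, adjusted p = 0.836). *Tppp3* was the most abundant of the family in all 6 libraries. Of the carboxypeptidase genes related to *Aebp1*, 5 of 6 passed the filter, 3 were higher and 2 lower, and 0 were called. *Cpe*, a prohormone-processing carboxypeptidase and the most abundant of them, was at 123 ± 1.86 FPKM (SD, n = 3) for WT against 113 ± 4.32 FPKM (SD, n = 3) in KO muscle (log2 fold change -0.12, adjusted p = 0.446). *Cpxm2* and *Cpxm1*, which like *Aebp1* carry a discoidin domain, had log2 fold changes of 0.39 (adjusted p = 0.335) and 0.31 (adjusted p = 0.472), *Cpm* of 0.49 (adjusted p = 0.305) and *Cpd* of -0.45 (adjusted p = 0.156). *Cpz* was under the filter, at 0.0443 to 0.0929 FPKM in WT and 0 to 0.344 FPKM in KO muscle.

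Among the transcription factors, *Scx* (ENSMUSG00000034161, chromosome 15, 76457452 to 76459458, plus strand) was at 1.32, 1.04 and 1.79 FPKM for WT replicates 1, 7 and 8, compared with 0.884, 2.82 and 2.21 FPKM for the KO mice. KO replicate 1 was below every WT library and the other two KO libraries were above them. The log2 fold change was 0.37 (SE 0.41, adjusted p = 0.587, unadjusted 95% interval -0.59 to 1.34), smaller than the spread between mice, and it was -0.34 after correction for GC content. *Scx* has the highest GC content of the set, 62.1%, and lies within *Bop1*, which is read from the other strand and whose exons do not touch it. *Mkx* (ENSMUSG00000061013, chromosome 18, 6934518 to 7004780, minus strand) was the lowest of the 10 genes, at 0.650, 0.559 and 0.267 FPKM in WT mice 1, 7 and 8 against 1.09, 0.595 and 0.379 FPKM for the KO mice. These values rest on about 7 to 19 fragments a library, and an exon of AC148004.2 overlaps *Mkx* on the same strand, so that fragments may be shared. The log2 fold change was 0.37 (SE 0.46, adjusted p = 0.633, interval -0.71 to 1.46). *Tnmd* (ENSMUSG00000031250, chromosome X, 133850980 to 133865577, plus strand) was at 18.1, 10.9 and 7.95 FPKM in WT mice 1, 7 and 8 against 27.4, 12.1 and 9.64 FPKM for the KO mice. The libraries of the genotypes interleaved, and the log2 fold change of 0.34 (SE 0.43, adjusted p = 0.636, interval -0.66 to 1.34) was -0.10 without KO replicate 1.

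*Fmod* (ENSMUSG00000041559, chromosome 1, 134037254 to 134048277, plus strand) had the highest mean of the 10 genes over all 6 libraries. Its level was 39.7, 31.8 and 10.4 FPKM for WT replicates 1, 7 and 8, compared with 82.9, 67.4 and 27.3 FPKM for the KO mice. KO replicate 8 lay within the WT range and KO replicates 1 and 7 lay above it. The means were 27.3 ± 15.2 FPKM (SD, n = 3) for WT against 59.2 ± 28.7 FPKM (SD, n = 3) in the KO. The log2 fold change was 1.18 (SE 0.57, adjusted p = 0.233, interval -0.16 to 2.51), so this difference did not pass the test. *Chad* (ENSMUSG00000039084, chromosome 11, 94565047 to 94569127, plus strand), whose locus overlaps *Acsf2* on the other strand outside the exons, was at 6.67, 7.33 and 1.37 FPKM in WT mice 1, 7 and 8 against 33, 15.7 and 5.09 FPKM for the KO mice. It had the largest log2 fold change of the set, 1.73 (SE 0.80, adjusted p = 0.217, interval -0.14 to 3.61), and also the largest spread, with KO libraries that differed 6.49-fold and WT libraries that differed 5.37-fold. *Kera* (ENSMUSG00000019932, chromosome 10, 97606879 to 97613692, plus strand) was at 20.7, 7.85 and 7.79 FPKM in WT mice 1, 7 and 8 against 15.2, 13.5 and 10.2 FPKM for the KO mice. WT replicate 1 was the highest of the 6 libraries, and the log2 fold change was 0.24 (SE 0.37, adjusted p = 0.714, interval -0.64 to 1.11).

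Both thrombospondins were higher in the KO mice on average. *Thbs4* (ENSMUSG00000021702, chromosome 13, 92751590 to 92794818, minus strand) was at 35.0, 28.8 and 21.1 FPKM in WT mice 1, 7 and 8 against 63.7, 57.2 and 28.5 FPKM for the KO mice. KO replicate 8 was below WT replicates 1 and 7, and the log2 fold change was 0.76 (SE 0.32, adjusted p = 0.187, interval 0.01 to 1.51). *Comp* (ENSMUSG00000031849, chromosome 8, 70373558 to 70382066, plus strand) was at 2.20, 2.75 and 1.00 FPKM in WT mice 1, 7 and 8 against 10.2, 9.67 and 2.11 FPKM for the KO mice. KO replicates 1 and 7 were far above the other 4 libraries, which ran from 1.00 to 2.75 FPKM, and the log2 fold change was 1.65 (SE 0.62, adjusted p = 0.158, interval 0.19 to 3.10). Leaving out KO replicate 8 raised the log2 fold change of *Comp* to 2.37, of *Chad* to 2.45 and of *Fmod* to 1.66, and leaving out WT replicate 8 lowered that of *Chad* to 0.98 and of *Fmod* to 0.59. Of the other thrombospondins, *Thbs1* had a log2 fold change of 0.90 (adjusted p = 0.160), *Thbs2* of 0.73 (adjusted p = 0.191) and *Thbs3* of -0.18 (adjusted p = 0.640). Their median of 0.73 was 0.44 without WT replicate 8 and 0.98 without KO replicate 8.

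By the same test 0 of the 8 markers were called, beside 0.324% of all tested genes. Of the markers 8 of 8 had a positive log2 fold change, with a median of 0.57. Over all tested genes 51.0% were positive and the median was 0.010. At an unadjusted p under 0.05, 2 of the 8 markers (*Thbs4* and *Comp*) were higher, beside 15.3% of all tested genes. In 0 of the 8 was every KO library above every WT library, beside 18.3% of all tested genes. After correction for GC content 7 of 8 were positive, with a median of 0.60, against 50.3% of all genes. The markers share the same 6 libraries, and all but *Scx* rose and fell together between them, so they do not count as 8 separate observations of the genotype.

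In WT muscle the order of the mean levels was *Thbs4* (28.3 FPKM), *Fmod* (27.3 FPKM), *Tppp3* (17.4 FPKM), *Tnmd* (12.3 FPKM), *Kera* (12.1 FPKM), *Aebp1* (11.1 FPKM), *Chad* (5.12 FPKM), *Comp* (1.99 FPKM), *Scx* (1.38 FPKM) and *Mkx* (0.492 FPKM). Of these 9 pairs of neighbours, 2 differed by more than the larger of their SDs over the 3 WT libraries, *Aebp1* from *Chad* and *Scx* from *Mkx*. In KO muscle the order was *Fmod* (59.2 FPKM), *Tppp3* (49.9 FPKM), *Thbs4* (49.8 FPKM), *Aebp1* (20.9 FPKM), *Chad* (17.9 FPKM), *Tnmd* (16.4 FPKM), *Kera* (12.9 FPKM), *Comp* (7.32 FPKM), *Scx* (1.97 FPKM) and *Mkx* (0.688 FPKM), and 4 pairs differed by more than that SD, *Thbs4* from *Aebp1*, *Kera* from *Comp*, *Comp* from *Scx* and *Scx* from *Mkx*.

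The markers varied between mice of the same genotype more than most genes. All 8 had an SD within genotype above the median of tested genes, and that of *Chad*, 1.33 on the log2 scale, was larger than that of 98.0% of them. For 7 of the 8 markers, all but *Scx*, replicate 8 was the lowest library in KO and in WT muscle, which held for 8.12% of all tested genes. KO replicate 1 was the highest KO library for the same 7 markers, against 36.5% of tested genes, and WT replicate 1 was the highest WT library for 5 of the 8. Nothing in the labels ties a number in one genotype to the same number in the other.

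**Figure D3:**
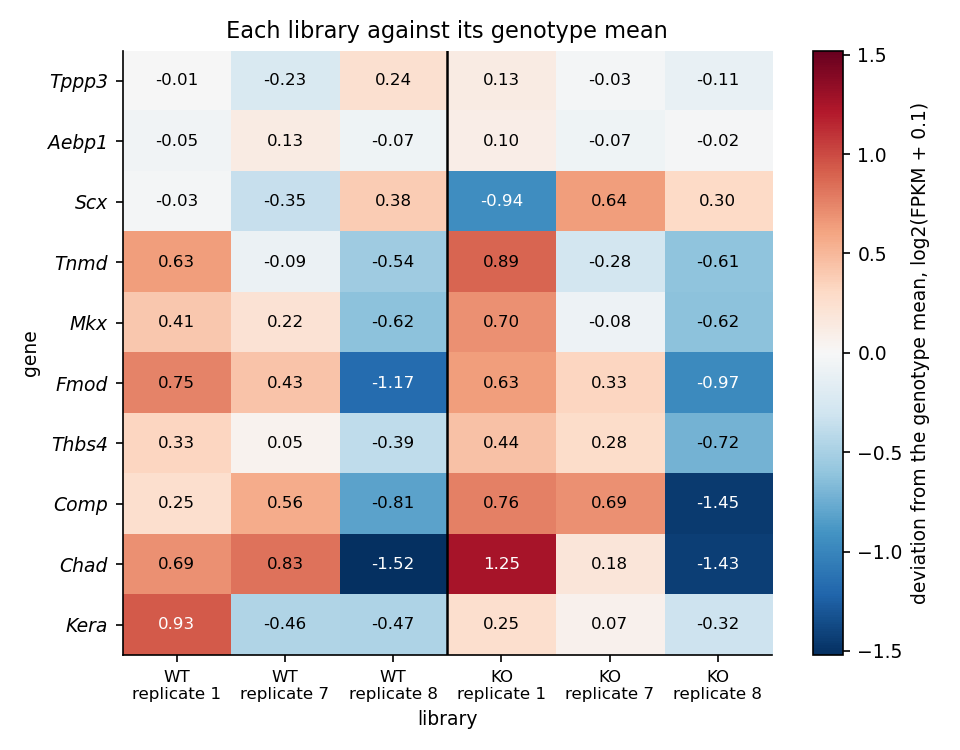
Deviation of each library from the mean of its genotype, in log2(FPKM + 0.1), for the 10 genes (rows) in the 3 WT and 3 KO libraries (columns). Replicate 8 is blue in both genotypes for *Tnmd*, *Mkx*, *Fmod*, *Thbs4*, *Comp*, *Chad* and *Kera*, down to -1.52 for *Chad* in WT, while *Tppp3* and *Aebp1* stay within -0.23 and 0.24. *Tppp3* and *Aebp1* were selected on these same libraries, which can favour a small spread.

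Once each genotype was centred on its own mean, *Fmod* followed *Chad* (Pearson's r = 0.97 over 6 libraries), *Mkx* and *Thbs4* (both r = 0.93), *Comp* (r = 0.90), *Tnmd* (r = 0.81) and *Kera* (r = 0.68). *Scx* went the other way, with r = -0.53 to *Fmod* and r = -0.78 to *Tnmd* and to *Mkx*. *Tppp3* was not part of this group, with r between -0.29 and 0.15 to the 8 markers, and *Aebp1* ranged from -0.84 for *Scx* to 0.59 for *Chad*. *Tppp3* and *Aebp1* themselves had r = -0.40. These correlations describe 6 libraries that share depth and base composition with each gene.

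Over the 6 libraries without centring, the genes most like *Tppp3* among 10677 genes that averaged 1 FPKM or more were *Fam195b* (r = 0.997), *Cc2d1a* (r = 0.995), *Dnajc4* (r = 0.993), *Gm9869* (r = 0.992) and *Ndufa7* (r = 0.992). Those most like *Aebp1* were *1190002H23Rik* (r = 0.994), *Lrp10* (r = 0.994), *Impdh1* (r = 0.993), *Gpsm1* (r = 0.991) and *Unk* (r = 0.989). Both genes were chosen for their KO against WT difference, which these r contain. With each genotype centred the nearest genes of *Tppp3* were others, led by *Fbf1* (r = 0.999) and *Mgmt* (r = 0.992), and those of *Aebp1* were led by *Gnao1* (r = 0.995) and *Mepce* (r = 0.994). For *Fmod*, looked at after its values were seen, the nearest genes were *Thbs2* (r = 0.986), *Chad* (r = 0.982), *Prg4* (r = 0.976), *Tnc* (r = 0.973) and *Col12a1* (r = 0.969), all of which encode extracellular matrix or lubricating proteins, with *Thbs4* at position 13 and *Comp* at position 18. This did not hold for every marker. The single nearest gene was *Clic4* for *Scx*, *Cys1* for *Tnmd*, *Tbx3* for *Mkx* and *Ptgis* for *Thbs4*. It was *Ano1* for *Comp*, *Jam2* for *Kera* and *Prg4* for *Chad*. With each genotype centred the nearest genes of *Fmod* were *Prr3* (r = 0.988), *Csf1* (r = 0.987), *C2cd3* (r = 0.983), *Thbs2* (r = 0.983) and *Gm11266* (r = 0.981), of which *Thbs2* encodes a matrix protein, and *Chad* stood at position 11, *Thbs4* at 71 and *Comp* at 100.

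Of the 24 tendon matrix genes, 14 had replicate 8 as the lowest library in both genotypes, 10 had replicate 1 as the highest in both, and 8 had both. Replicate 8 was lowest in both genotypes for 8.12% of all tested genes, and that share was not counted for the other patterns. *Angptl7*, a secreted protein, was at 37.5, 12.7 and 7.03 FPKM in WT mice 1, 7 and 8 against 96.2, 45.3 and 27.3 FPKM for the KO mice, a log2 fold change of 1.71 (SE 0.65, adjusted p = 0.159) with the same value after correction for GC content. *Col1a2*, a chain of type I collagen, was at 48.7, 27.9 and 21.0 FPKM in WT mice 1, 7 and 8 against 96.7, 56.8 and 26.5 FPKM for the KO mice (log2 fold change 0.78, adjusted p = 0.335). Replicate 1 was the highest and replicate 8 the lowest library of each genotype for both genes. *Sparc*, a collagen-binding glycoprotein, had 120.3 ± 30.1 FPKM (SD, n = 3) for WT against 179 ± 74.0 FPKM (SD, n = 3) in KO muscle (log2 fold change 0.51, adjusted p = 0.331), *Dcn*, the proteoglycan decorin, had a log2 fold change of -0.15 (adjusted p = 0.579), and *Cilp2* of 1.65 (adjusted p = 0.233). Of the 24 tendon matrix genes listed, all were tested, 17 were higher and 7 lower, 0 were called and the median log2 fold change was 0.51. With GC content corrected, 22 of 24 were higher, with a median of 0.41. The median was 0.27 without KO replicate 7 and 0.32 without KO replicate 1, and ran to 0.71 with a library left out. The adipocyte, smooth muscle and fibroblast markers given further on were also higher in part, and the fibroblast list shares genes with the tendon matrix list. The part of these cell types in the differences was not tested.

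The regulators and signals of tendon gave no common direction. Of 10 tested genes of 15 listed, 5 were higher and 5 lower, 0 were called and the median log2 fold change was -0.04. *Egr1*, an immediate early factor that acts in tendon, was at 7.08, 1.72 and 0.531 FPKM in WT mice 1, 7 and 8 against 8.33, 1.97 and 12.5 FPKM for the KO mice (log2 fold change 1.58, SE 0.95, adjusted p = 0.323), and its range within WT was wider than the difference. *Smad3*, which carries TGF-β signals, had a log2 fold change of -0.21 (adjusted p = 0.664), *Tgfb1* of 0.60 (adjusted p = 0.343) and *Six2* of -0.48 (adjusted p = 0.439). *Gdf7* was listed at 0 in all 6 libraries, and *Gdf5*, *Gdf6*, *Egr2* and *Foxc2* were under the filter.

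*Prg4*, which encodes lubricin of the tendon sheath and joint surface, was at 9.49, 8.25 and 3.35 FPKM in WT mice 1, 7 and 8 against 24.7, 13.6 and 7.75 FPKM for the KO mice, a log2 fold change of 1.09 (SE 0.50, adjusted p = 0.212), with KO replicate 8 inside the WT range. *Cd248*, a stromal cell surface protein, was at 2.49, 2.51 and 2.56 FPKM in WT mice 1, 7 and 8 against 3.75, 5.81 and 3.15 FPKM for the KO mice (log2 fold change 0.68, adjusted p = 0.121), and the GC-corrected value was 0.00. *Cd55* had a log2 fold change of -0.49 (adjusted p = 0.104), *Cd34* had means of 28.8 FPKM in WT and 28.4 FPKM in KO muscle (adjusted p = 0.992) and *Ly6a* had a log2 fold change of -0.04 (adjusted p = 0.926). Of the 11 sheath and interstitial progenitor genes listed, 10 were tested, 4 were higher and 6 lower, 0 were called and the median was -0.02. With GC content corrected, 7 of 10 were higher and the median was 0.08.

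At the myotendinous junction, *Col22a1*, the collagen that marks the junction, was at 1.82, 2.16 and 1.74 FPKM in WT mice 1, 7 and 8 against 4.45, 4.12 and 2.44 FPKM for the KO mice, with no overlap and a log2 fold change of 0.87 (SE 0.24, adjusted p = 0.0950). It was picked out after its values were seen. *Ankrd1*, a muscle stretch-response protein, was at 1.02, 1.48 and 1.29 FPKM in WT mice 1, 7 and 8 against 2.12, 3.39 and 3.43 FPKM for the KO mice (log2 fold change 1.16, SE 0.24, adjusted p = 0.0708) and at 1.28 after correction for GC content. *Xirp1* had a log2 fold change of 1.05 (adjusted p = 0.14), *Pxn*, the adhesion protein paxillin, of 0.40 (adjusted p = 0.118, and -0.15 after correction), *Itgb1* of -0.13 (adjusted p = 0.426) and *Xirp2* of -0.04 (adjusted p = 0.842). Of the 11 genes of this list 8 were higher and 3 lower, 0 were called and the median was 0.40, which GC correction lowered to 0.26, with 10 of 11 higher. In 6 of the 11 every KO library was above every WT library, beside the 18.3% of all tested genes. Besides *Ankrd1* these were *Itga7*, *Tln1*, *Tln2*, *Pxn* and *Col22a1*, of 52.7% to 58.7% GC. Of tested genes of 52% to 56% GC 80.5% had a positive log2 fold change, and of 56% to 60% GC 93.0%. These shares concern the sign alone, and the share of genes without overlap was not counted by GC range. The count with every KO library above every WT library was also high in some cell type lists given further on. It was 5 of 6 for smooth muscle and pericyte, 3 of 8 for myofiber, 2 of 3 for erythrocyte and 2 of 5 for adipocyte markers. It was 1 of 7 for fibroblast, 1 of 4 for macrophage and leukocyte and 0 for the other cell type markers. In the gene lists it was 2 of 24 for tendon matrix, 0 of 10 for regulators, 1 of 10 for sheath genes and 1 of 10 for proteoglycans. It was 1 of 3 for thrombospondins, 0 of 2 for TPPP genes and 0 of 5 for carboxypeptidases. In the other direction, every KO library was below every WT library in 2 of 5 carboxypeptidases (*Cpe* and *Cpd*). The same held for 1 of 10 sheath genes (*Cd55*), 1 of 10 regulators and 1 of 6 smooth muscle and pericyte markers, and for 0 in the other lists. The share of all tested genes below in this way was not counted.

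**Figure D4:**
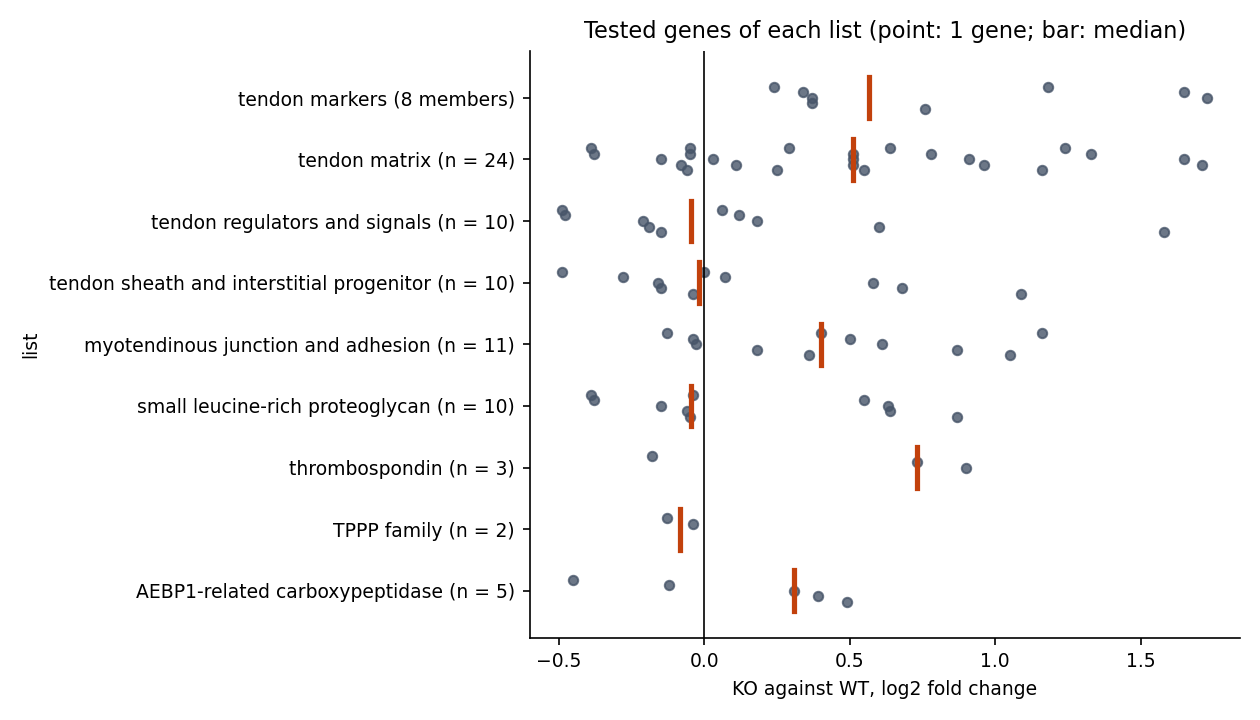
KO against WT log2 fold change (horizontal axis) of the tested genes of the 8 marker members and the 8 listed groups, with 1 point per gene and the group median as an orange bar. The medians of the tendon markers (0.57), tendon matrix (0.51), thrombospondins (0.73), myotendinous junction genes (0.40) and carboxypeptidases (0.31) lie to the right of 0. Those of the tendon regulators (-0.04), sheath genes (-0.02), small leucine-rich proteoglycans (-0.04) and TPPP genes (-0.08) lie near 0. The values are without correction for GC content.

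The remaining small leucine-rich proteoglycans gave no common direction. Of 10 tested genes of 14 listed, of which 7 also stand in the tendon matrix list, 4 were higher and 6 lower, 0 were called and the median log2 fold change was -0.04. *Bgn*, biglycan, was at 23.8, 17.4 and 16.3 FPKM in WT mice 1, 7 and 8 against 25.7, 39.4 and 21.3 FPKM for the KO mice (log2 fold change 0.55, adjusted p = 0.203), *Prelp* had 0.64 (adjusted p = 0.168), *Tsku* 0.87 (adjusted p = 0.283) and *Ogn* -0.38 (adjusted p = 0.20). The GC content of these genes runs from 34.3% for *Aspn* to 56.4% for *Podn*, and after correction for it 9 of 10 were higher, with a median of 0.37.

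Markers of other cell types were read beside the tendon genes. The defining cartilage markers *Acan* and *Matn1* were listed at 0 in all 6 libraries, and *Col2a1* was at 0.00985 to 0.0472 FPKM. Of the 8 cartilage genes 2 were tested, *Col11a2* and *Col9a1*. Both had a higher mean in KO muscle and were highest in KO replicate 1 (2.12 and 1.57 FPKM), as were *Comp* and *Chad*, which cartilage also makes. The log2 fold change of *Col11a2* was 0.68 (limma adjusted p = 0.273), and -0.11 after correction for GC content. That of *Col9a1* was 0.39 (adjusted p = 0.470), and 0.26 after correction. For the whole list the summed level was 1.44 to 1.99 FPKM in WT and 2.02 to 4.11 FPKM in KO muscle. Of the 6 bone genes 0 passed the filter, *Sp7* and *Bglap2* were listed at 0, and the summed level was 0.271 to 0.435 FPKM in WT and 0.360 to 0.626 FPKM in KO muscle. Fibroblast markers were higher for 4 of 7 genes, with sums of 749 to 829.9 FPKM in WT and 785 to 1058 FPKM in KO muscle. They are not a separate reading, since *Col1a1*, *Col1a2*, *Col3a1*, *Dcn* and *Lum* also stand in the tendon matrix list. *Pdgfra* stands in the sheath and interstitial progenitor list, and only *Gsn* is in neither. Adipocyte markers were higher for 5 of 5 genes, with a median log2 fold change of 1.65 and sums of 225 to 426 FPKM in WT and 274 to 529 FPKM in KO muscle, and KO replicate 7, not replicate 1, held the highest *Adipoq* (40.4 FPKM).

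Smooth muscle and pericyte markers were higher for 5 of 6 genes (71.2 to 99.2 FPKM in WT, 75.1 to 101 FPKM in KO), endothelial markers for 5 of 7 (62.0 to 87.4 FPKM and 75.9 to 87.1 FPKM), macrophage and leukocyte markers for 4 of 4 tested (3.36 to 9.06 FPKM and 6.81 to 13.3 FPKM) and erythrocyte markers for 3 of 3 (64.9 to 98.2 FPKM and 113 to 228 FPKM). Schwann cell markers were higher for 3 of 5 tested genes (27.8 to 105 FPKM and 32.1 to 136 FPKM), satellite cell markers for 2 of 2 tested (6.39 to 10.5 FPKM and 9.34 to 11.2 FPKM), myofiber markers for 6 of 8 (47219 to 69935 FPKM and 63341 to 75406 FPKM) and ciliated epithelium markers for 0 of 2 tested (4.10 to 5.39 FPKM and 3.12 to 6.62 FPKM, with *Foxj1* listed at 0). With GC content corrected, 4 of 8 myofiber, 1 of 2 satellite cell, 2 of 5 Schwann cell, 4 of 7 endothelial and 0 of 2 ciliated epithelium markers were higher. The corrected count was 5 of 6 for smooth muscle and pericyte, 4 of 4 for macrophage and leukocyte and 3 of 3 for erythrocyte markers. It was 5 of 5 for adipocyte, 5 of 7 for fibroblast and 1 of 2 for cartilage markers, against 50.3% of all genes. None of these cell type genes was called by limma, and the part of these cell types in the differences of the tendon genes was not tested.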

How the data were processed

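The authors mapped the reads of TruSeq stranded mRNA libraries (paired-end) to GRCm38 with TopHat and deposited FPKM from Cufflinks, 1 column per mouse, with no counts. The versions and the gene annotation release are not given in the sources used here. Genotypes were compared in R 4.3.3 by limma 3.58.1, fitted with a variance trend to log2(FPKM + 0.1). The 12334 genes whose mean reached 0.5 FPKM were tested, and called at a Benjamini-Hochberg adjusted p under 0.05. Fold changes on this scale understate those of low genes. Intervals are at 95% from the same fit and are not adjusted. No member was under the filter, so no permutation test was needed. P-values set the difference between genotypes against the spread between 3 mice a genotype, with each gene's variance moderated over all tested genes.

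Gene positions and GC content came from GENCODE vM21 (GRCm38), which gave GC content for 97.2% of tested genes. The GC correction subtracted from each library a loess curve of span 0.3. Depth was the number of fragments that made the low FPKM of genes with a single transcript whole within 0.15 (91.4% to 94.8% of values). On simulated data the fit was checked for known changes. The simulated SD was capped below that of each marker and no GC trend was included, so the check does not cover the markers. Genes were named by rule. They were the members, the relatives of *Tppp3* and *Aebp1*, and in each list called genes, the 3 most abundant and the 2 with the largest change, plus the 5 genes most like *Tppp3* and *Aebp1*. The members and lists were chosen with earlier results of these data known. Alternatives covered pseudocount, filter, scaling, variance trend, array weights, replicate block, GC content, genes listed at 0 and each library left out. A gene that the naming rule also selected is not reported here. Figures were drawn with matplotlib 3.10.9.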

Additional observations from a re-analysis of the deposited data

How the results depend on the processing

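The difference of the 8 markers stayed uncalled under each alternative run, with 0 called. *Mkx* was left out by the filter at a mean of 1 FPKM, which tested the other 7. Their adjusted p ranged from 0.0878 to 1.00. Their log2 fold changes changed sign in 3 genes, *Scx* with GC correction (-0.34, and -0.34 together with the replicate block), *Tnmd* without KO replicate 1 (-0.10, in a range of -0.10 to 0.66 with 1 library left out) and *Mkx* with array weights (-0.02), and the cause was not tested. Array weights lowered *Chad* from 1.73 to 0.55, *Comp* from 1.65 to 0.59, *Fmod* from 1.18 to 0.47 and *Thbs4* from 0.76 to 0.42, and GC correction lowered *Comp* to 1.04. *Scx* was 0.06 without KO replicate 7, *Mkx* 0.03 without KO replicate 1 and *Kera* 0.00 without WT replicate 8. The log2 fold change of *Tppp3* moved to 1.00 and that of *Aebp1* to 0.40 with GC correction, with the same values when the replicate block was added, a combination chosen after seeing the data, and *Aebp1* moved to 0.81 with array weights. Leaving out 1 library at a time gave 1.41 to 1.64 for *Tppp3* and 0.86 to 0.97 for *Aebp1*. Of the listed genes 0 were called in each setting except array weights, which called 11.

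Genes called higher and lower in KO muscle numbered 31 and 9. The count higher was 7 with a pseudocount of 1, 9 without a filter, 20 with median scaling, 11 with upper quartile scaling, 12 without the variance trend, 1863 with array weights, 6 with GC correction, 5 with GC correction and the replicate block, 1 without genes listed at 0, and 6 to 19 with a library left out. The count lower was 4 with a pseudocount of 1, 1284 with array weights, 0 in limma without genes listed at 0, where 1299 were lower at an unadjusted p under 0.05, and 5 to 19 with a library left out. The replicate block called 6 higher, and same-numbered libraries correlated at -0.03, -0.08 and 0.03 for numbers 1, 7 and 8 over all tested genes, so the numbers were not taken to pair the mice. Those correlations do not describe the markers, whose SE depended on this choice. With the block the SE fell from 0.57 to 0.13 for *Fmod* and from 0.80 to 0.24 for *Chad*. It fell from 0.62 to 0.24 for *Comp* and from 0.32 to 0.15 for *Thbs4*, but only from 0.41 to 0.37 for *Scx*. The limma adjusted p with the block was 0.0878 for *Fmod*, 0.109 for *Chad* and for *Comp* and 0.120 for *Thbs4*. Depth limits *Mkx*, with 7 fragments in each library numbered 8, most.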
